A study of Mus musculus with 2 samples.

Results

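The mammalian circadian clock is a feedback loop in which the proteins of Arntl (BMAL1) and Clock, or its relative Npas2, pair up and switch on genes through E-box elements. Among the genes switched on are Per and Cry genes, whose proteins return to the nucleus and repress that pair, and Bhlhe40 and Bhlhe41 (DEC1 and DEC2), which compete for the same elements. Most of these transcripts oscillate over the day, and in lymphocytes Bhlhe40 is also known as an activation-induced factor that shapes cytokine output. The 10 genes described here were chosen by name for these roles, with earlier results of the same data known, from 17024 named genes of the table. All 10 had a row.

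The sequenced RNA came from GFP-positive cells of the small intestine, sorted from C57BL/6 animals that were 6 to 8 weeks old. The Th17 library (T helper 17 cells) came from T cells of mice with an IL17A_IRES_GFP knock-in, and the ILC3 library (group 3 innate lymphoid cells) from mice with an IL23R_GFP knock-in. Mouse line, reporter and cell type therefore differ together, and each group is 1 library, with 17555055 reads over named genes in Th17 and 22509405 in ILC3. The sources used here give neither the number of animals per library nor the time of day at which cells were taken, so time of collection and cell type cannot be told apart. No difference below has a replicate check. Values are the authors' size-factor-normalized counts, intervals are exact 95% intervals that cover counting error only, and fewer cells of a type and less RNA per cell cannot be told apart in such bulk samples.

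The labelled cell types were read against their markers. Cd4 was at 24589 normalized counts in Th17, against 2044 in ILC3, and 11 of 12 T cell markers were at least 4-fold higher in Th17. Il22 was at 2830 in Th17, against 31670 in ILC3, and 8 of 12 ILC3 markers were at least 4-fold higher in ILC3. The 9 genes of the shared type 3 program summed to 95098 in Th17, against 93359 in ILC3, but were not level one by one. Of the 9, 4 were higher in Th17 and 5 lower, with a median log2 ratio of -0.83. Of all genes with a mean of at least 10, 49.3% were lower. Il17a, whose reporter defined the Th17 sort, was at 33614 in Th17, against 953 in ILC3, and Il22 went the other way. Every list of markers of other cells also summed higher in ILC3, the myeloid list by the least (1.10-fold). The 10 fibroblast and muscle markers summed to 569 in Th17, against 9444 in ILC3, led by Col3a1 at 2.35 in Th17, against 2159 in ILC3. The 7 endothelial markers summed to 1967 in Th17, against 5183 in ILC3. Nearly all of the Th17 sum was Pecam1, at 1965 in Th17, against 3801 in ILC3. The endothelial markers Cdh5, Kdr, Tek, Emcn and Vwf were listed at 0 in Th17, against 333, 221, 174, 19.6 and 413 in ILC3. The 11 epithelial markers summed to 213 in Th17, against 1299 in ILC3, with Krt20 listed at 0 in Th17, and 7 B and plasma cell markers summed to 3250 in Th17, against 13667 in ILC3, mostly Igj (822 in Th17, against 10299 in ILC3). The 11 myeloid markers summed to 1388 in Th17, against 1530 in ILC3. The mast cell and granulocyte markers summed to 10.6 in Th17 and 58.7 in ILC3 (S100a9 at 0 in Th17), and the enteric glia and neuron markers to 18.8 in Th17 and 85.9 in ILC3 (Gfap at 0 in Th17, Elavl4 at 0 in ILC3). The part of these cells in the differences below was not tested.

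Elements that clock and signal-dependent factors are known to bind were looked for on both strands of the RefSeq promoter windows (assembly GRCm38.p6) of 8 of the 10 genes, 250 bases before to 50 after each annotated start, in 12 windows in all. Per2 and Bhlhe40 had no entry. The Per1, Cry1 and Per3 windows are shown for the 250 bases before the start, since they hold different elements. Capitals mark an E-box (CACGTG), an E-prime box (CACGTT, or its reverse complement), a D-box (TTATGTAA) or the core letters of a cAMP response element (TGACG, or its reverse complement). Both Per1 windows are on the plus strand, at chr11:69098699-69098948 for the first start and chr11:69099902-69100151 for the second. Cry1 is on the minus strand at chr10:85185055-85185304 and Per3 on the minus strand at chr4:151044666-151044915.
Per1, first start: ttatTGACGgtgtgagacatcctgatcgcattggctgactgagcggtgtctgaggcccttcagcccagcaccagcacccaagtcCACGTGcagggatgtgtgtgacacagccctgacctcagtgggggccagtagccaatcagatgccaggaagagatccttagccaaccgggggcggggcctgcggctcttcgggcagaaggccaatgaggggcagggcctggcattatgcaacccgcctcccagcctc
Per1, second start: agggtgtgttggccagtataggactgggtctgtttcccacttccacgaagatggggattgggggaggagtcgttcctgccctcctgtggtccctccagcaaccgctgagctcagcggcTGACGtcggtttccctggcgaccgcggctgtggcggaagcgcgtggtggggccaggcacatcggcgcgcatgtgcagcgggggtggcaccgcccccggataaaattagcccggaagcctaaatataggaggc
Cry1: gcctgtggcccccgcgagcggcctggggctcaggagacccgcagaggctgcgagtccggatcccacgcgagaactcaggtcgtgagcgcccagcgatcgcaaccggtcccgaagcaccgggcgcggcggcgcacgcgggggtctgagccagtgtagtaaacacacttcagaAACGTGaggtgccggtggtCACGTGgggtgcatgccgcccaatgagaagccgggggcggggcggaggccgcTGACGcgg
Per3: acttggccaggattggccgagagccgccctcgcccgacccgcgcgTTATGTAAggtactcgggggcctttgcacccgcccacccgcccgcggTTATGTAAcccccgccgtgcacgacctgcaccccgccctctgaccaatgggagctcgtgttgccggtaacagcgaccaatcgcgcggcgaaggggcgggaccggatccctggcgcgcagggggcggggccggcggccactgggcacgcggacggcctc
The E-box was found in 3 of the 12 windows, those of Per1 (166 bases before the first start), Cry1 (60 bases before) and Bhlhe41 (153 bases before), and in 7.15% of all 32851 promoter windows. The D-box, bound by DBP, TEF, HLF and NFIL3, was found only in the Per3 window among the 12, at 205 and 158 bases before the start, and in 0.938% of all windows. The core letters TGACG were in 4 of the 12 windows, 2 of them of Per1, and in 20.8% of all windows, while the full cAMP response element TGACGTCA was in 0 of the 12 and in 1.79% of all windows. The E-prime box was in 2 of the 12 windows, those of Cry1 and Cry2, and in 4.68% of all windows. The core letters of the element bound by REV-ERB proteins (TAGGTCA) were in 1 of the 12, 31 bases after the second Arntl start, and in 2.61% of all windows. A match describes letters in a window and is not a binding site.

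**Figure D1:**
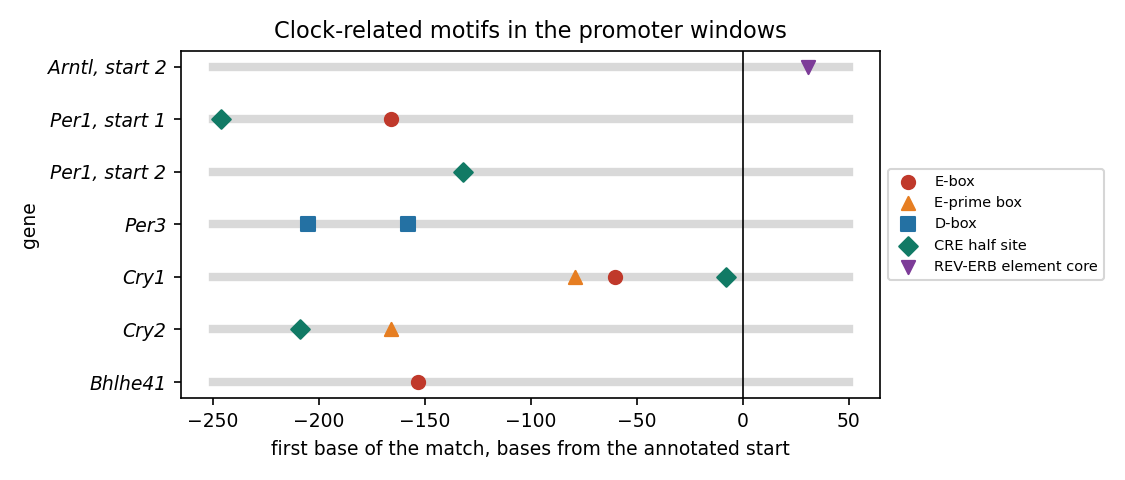
Motif matches in the promoter windows of core clock genes (grey bars, 250 bases before to 50 after the annotated start at 0); the x axis gives the first base of each match and each row is 1 annotated start, and CRE stands for the core letters TGACG. Per1 has an E-box before its first start only, Cry1 has its E-box nearest to the start, and Per3 has the pair of D-boxes; windows with no match are not drawn.

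Between the libraries, 9 of the 10 genes were lower in Th17 and 1, Bhlhe41, was higher. Npas2 had the widest gap of the 9, Per1 and Per2 followed at nearly the same ratio, and Cry1 was nearly level. The counting interval excluded equal values for 9 of the 10 genes, Cry1 being the exception. On log2((Th17 + 1)/(ILC3 + 1)) of normalized counts, the median over the 10 genes was -0.74, and over the 13719 genes with a mean of at least 10 it was 0.02. Of those 13719 genes, 49.3% were lower in Th17. A difference of at least 4-fold, where the higher value reached 100 normalized counts, was found for 1 of the 9 members that reach 100, Npas2, which was lower in Th17, and over all 10431 genes that reach 100 for 14.8% (6.40% higher in Th17, 8.39% higher in ILC3). At 2-fold, 3 of the 9 were lower in Th17 (Npas2, Per1 and Per2), and 0 were higher, while 32.3% of all such genes passed 2-fold (16.2% higher in Th17, 16.0% higher in ILC3). Counted in either direction, the members' shares at 4-fold and at 2-fold are close to those of all genes. The number at 2-fold depended on the scaling, for the members as for all genes. Scaled by total reads, 5 of the 9 members were lower in Th17, as were 18.0% of all such genes, while 14.1% were higher. Centred on 150 genes of mitochondrial ribosome, proteasome and respiratory complex I, 6 of the 9 members were lower in Th17, as were 26.3% of all such genes, while 9.19% were higher. Before centring, those 150 genes were 1.38-fold higher in Th17. Centring assumes that they are level between the cell types, which was not tested. Bhlhe41 did not reach 100 in either library. In the authors' deposited table, whose p-values have no replicates behind them, the adjusted p was 0.505 for Npas2 and 1 for the other 9, and 1.80% of all 17024 genes were under 0.05.

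**Figure D2:**
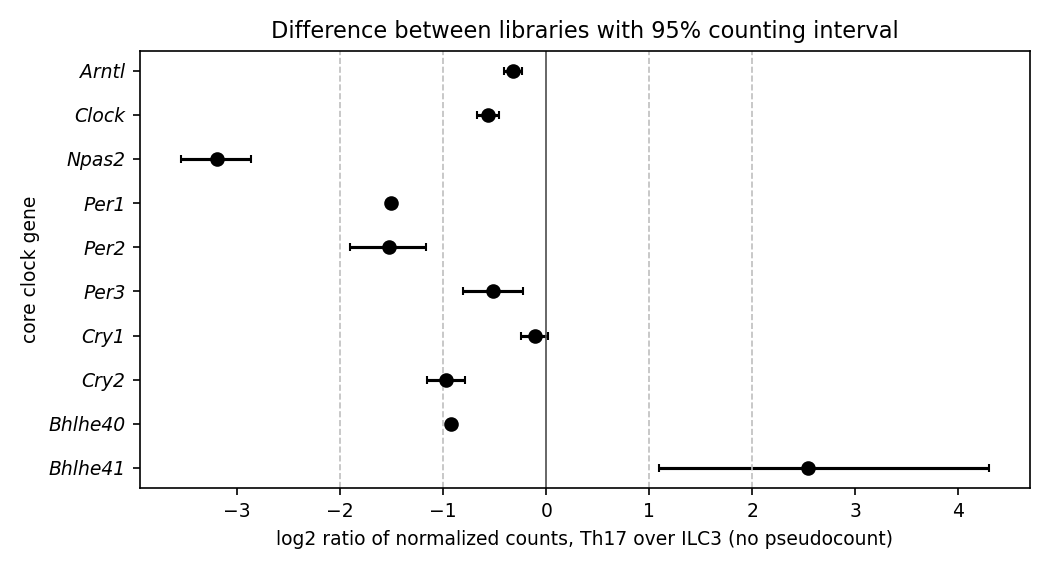
Difference of each core clock gene as the log2 ratio of normalized counts, Th17 over ILC3, without a pseudocount (points, with exact 95% counting intervals from 1 library per group); dashed lines mark 2-fold and 4-fold. Only Npas2 lies past 4-fold on the ILC3 side, and Bhlhe41, the 1 point on the Th17 side, has the widest interval.

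The activators differed by unlike amounts. Arntl, which encodes BMAL1, the obligate partner of the pair, had 1843 normalized counts in Th17, against 2306 in ILC3, 1.25-fold lower in Th17 (1.18 to 1.33). Clock, which encodes its usual partner, had 1216 in Th17, against 1800 in ILC3, 1.48-fold lower in Th17 (1.37 to 1.60). Neither reached 2-fold. Npas2, which encodes a partner that can stand in for CLOCK, had 91.7 in Th17 (72.5 to 114), against 842 in ILC3 (790.3 to 896), 9.18-fold lower in Th17 (7.28 to 11.7). A lower log2 ratio than that of Npas2 was found for 7.93% of the 13719 genes. The count of Clock relative to Npas2 was 13.3 in Th17, against 2.14 in ILC3, which is 6.20-fold higher in Th17 (4.85 to 8.00). Gene length and the scaling of the libraries cancel in such a comparison of ratios. The transcripts of the BMAL1 partners therefore stood in different proportions in the libraries, and proteins were not measured. The summed activator count was 3150 in Th17, against 4949 in ILC3. Npas2 was lower in Th17 together with the fibroblast and endothelial markers given above, and their part in its difference was not tested.

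Among the period genes, which encode the PER subunits of the repressor complex, Per1 dominated. It had 12180 normalized counts in Th17, against 34689 in ILC3, 2.85-fold lower in Th17 (2.79 to 2.91), and made up 97.8% of the summed PER count in Th17 and 98.5% in ILC3. Per2, whose product is a scaffold of the same complex, had 91.7 in Th17 (72.5 to 114), against 264 in ILC3 (235.9 to 296), 2.88-fold lower in Th17 (2.24 to 3.75). Per1 and Per2 thus differed by nearly the same factor. The count of Per1 relative to Per2 was 133 in Th17, against 131 in ILC3, a ratio of 1.01 between the libraries (0.787 to 1.32). Per3, the period gene least needed for rhythms in mice, had 179 in Th17 (151 to 209.5), against 255 in ILC3 (227 to 286), 1.43-fold lower in Th17 (1.17 to 1.75). Per1 relative to Per3 was 68.1 in Th17, against 136 in ILC3, 1.995-fold lower in Th17 (1.63 to 2.44), an interval that excludes equal ratios. Per3 was thus closer to level than Per1.

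The cryptochromes encode the strongest repressors of the BMAL1 pair. Cry1 had 931 normalized counts in Th17 (868 to 998), against 1005 in ILC3 (949 to 1064), 1.08-fold lower in Th17 (0.986 to 1.18), a difference within counting error. Centred on the same 150 genes, its log2 ratio was -0.57. Cry2 had 395 in Th17 (354 to 440), against 775 in ILC3 (725 to 827), 1.96-fold lower in Th17 (1.73 to 2.23), just short of 2-fold. Cry1 relative to Cry2 was 2.36 in Th17, against 1.30 in ILC3, 1.82-fold higher in Th17 (1.55 to 2.13). The balance of the pair thus leaned further to Cry1 in Th17. Cry2 shares 4.67% of its annotated exon bases with D930015M05Rik on the opposite strand, and whether the counting used strand is not stated in the sources used here.

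As a group, the PER transcripts were 2.83-fold lower in Th17, with summed counts of 12450 in Th17, against 35209 in ILC3, and the CRY transcripts 1.34-fold lower, at 1326 in Th17, against 1780 in ILC3. The PER sum relative to the CRY sum was 9.39 in Th17, against 19.8 in ILC3, 2.11-fold lower in Th17 (1.95 to 2.27). The sum of the 5 repressor genes relative to that of the 3 activators was 4.37 in Th17, against 7.47 in ILC3, 1.71-fold lower in Th17 (1.62 to 1.80). Both comparisons rest on Per1, which held 88.4% of the summed PER and CRY count in Th17 and 93.8% in ILC3.

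**Figure D3:**
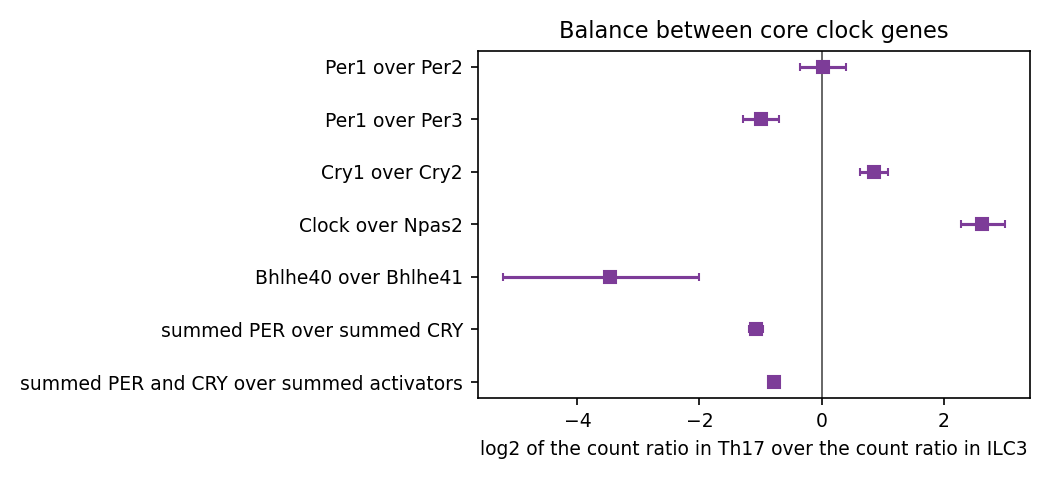
Balance between core clock genes: the count ratio of each pair in Th17 over the same ratio in ILC3, on a log2 axis, with exact conditional 95% intervals (counting error, 1 library per group). Per1 over Per2 has an interval across 0, Clock over Npas2 and Cry1 over Cry2 lie on the Th17 side, and the other 4 pairs lie on the ILC3 side.

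The DEC factors stood far apart in expression level. Bhlhe40, which encodes the repressor DEC1, had 50046 normalized counts in Th17, against 94873 in ILC3, 1.90-fold lower in Th17 (1.87 to 1.92), and its count was above those of 99.9% of all named genes in either library. It shares 2.51% of its annotated exon bases with 0610040F04Rik on the opposite strand. Bhlhe41, which encodes DEC2, had 24.7 in Th17 (15.3 to 37.7) from 21 reads and 4.25 in ILC3 (1.38 to 9.92) from 5 reads, 5.81-fold higher in Th17 (2.13 to 19.7). The Bhlhe41 ratio rests on few reads, and 1280 bases (19.0%) of its annotated exons are shared with Gm43909 on the opposite strand. Low read numbers were also distributed unlike in the libraries, with 2294 genes at 1 to 3 reads in Th17 and 337 in ILC3. Genes at 0 reads numbered 714 in Th17 and 2235 in ILC3. Bhlhe40 relative to Bhlhe41 was 2027 in Th17, against 22312 in ILC3, and nearly all DEC reads in either library were therefore from Bhlhe40.

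Per kb of the longest annotated transcript (GENCODE M21, another build than the authors' mm8), the order of levels was nearly the same in both libraries. Bhlhe40 was first, at 16076 normalized counts per kb in Th17, against 30476 in ILC3, and Per1 was second, at 2608 in Th17, against 7427 in ILC3. Arntl followed at 461 in Th17, against 577 in ILC3, and Cry1 at 308 in Th17, against 332 in ILC3. These 4 genes kept ranks 1 to 4 in both libraries. Below them, Clock was at 125 per kb in Th17, against 185 in ILC3, Cry2 at 99.4 in Th17, against 195 in ILC3, and Npas2 at 21.7 in Th17, against 199 in ILC3. Npas2 was thus in rank 8 in Th17 and rank 5 in ILC3. In ILC3 the counting intervals of Npas2, Cry2 and Clock overlapped. Per3 was at 29.8 in Th17, against 42.5 in ILC3 and Per2 at 15.7 in Th17, against 45.3 in ILC3, and the intervals of these genes overlapped in ILC3. In Th17 the interval of Npas2 overlapped those of Per3 and Per2. Bhlhe41 was last, at 4.03 in Th17, against 0.693 in ILC3. With the union of all annotated exons as the length, 3 pairs of neighbours changed places. In Th17 Cry1 was then in rank 3 and Arntl in rank 4, and Npas2 in rank 7 and Per3 in rank 8. In ILC3 Clock was in rank 6 and Cry2 in rank 7.

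**Figure D4:**
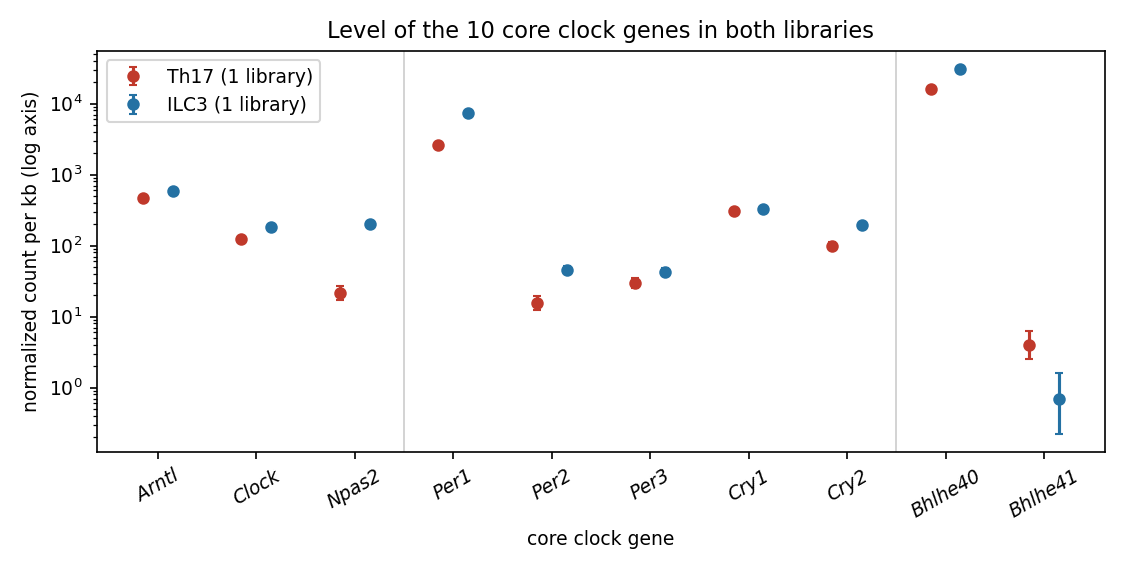
Level of each core clock gene in Th17 (red, left point of a pair) and ILC3 (blue, right point) as normalized counts per kb of the longest annotated transcript, on a log axis, with exact 95% Poisson intervals for counting error; vertical lines part activators, repressors and DEC factors. Bhlhe40 and Per1 are the highest in both libraries, and Npas2 is the gene with the widest gap toward ILC3.

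Genes known to be induced within minutes of stimulation were mostly lower in Th17, as were Per1 and Bhlhe40, which such stimuli are also known to induce. Of 26 immediate early genes, 18 were at least 2-fold lower in Th17 and 2 at least 2-fold higher (Myc and Dusp2), with a median log2 ratio of -1.42. Their summed normalized count was 253490 in Th17, against 1020589 in ILC3, 4.03-fold lower in Th17, and no member was at 0 in either library. Zfp36, an mRNA decay factor, was at 2172 in Th17, against 63829 in ILC3, and Atf3 and Egr1, transcription factors, were 17.1-fold and 15.0-fold lower in Th17. Junb and Fosl2, AP-1 subunits, were 2.55-fold and 1.26-fold lower. Their part in the Per1 and Bhlhe40 values was not tested.

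The Per1 gene is also known as a target of CREB, the cAMP-responsive factor, and of the glucocorticoid receptor. Of 15 genes of the CREB list, 4 were at least 4-fold lower in Th17 and 1 at least 4-fold higher (median -0.72). The shares over all genes that reach 100 were 8.39% and 6.40%. Of the 4, Nr4a1, Fosb and Dusp1 were also counted among the immediate early genes, and Dusp1 is in the glucocorticoid list too. At 2-fold, 6 were lower in Th17 and 2 higher, Pde4d and Crem (3.77-fold), beside 16.0% and 16.2% of all such genes. Gem, a small GTPase, was 17.1-fold lower in Th17 and Fosb 8.87-fold lower, while Pde4d, which breaks down cAMP, was at 6571 in Th17, against 101 in ILC3. Sik1, a kinase that restrains CREB coactivators, was 3.02-fold lower in Th17 and Pde4b 1.42-fold higher. Of 14 glucocorticoid-linked genes, 4 were at least 4-fold lower in Th17 and 3 at least 4-fold higher (median -0.10). The same shares over all genes, 8.39% and 6.40%, stand beside these counts. Nr3c1, the receptor gene itself, was 3.03-fold higher in Th17 (2.94 to 3.11), Mt1 14.2-fold higher, Klf9 10.9-fold lower, Dusp1 5.49-fold lower and Cxcr4 2.08-fold lower. The glucocorticoid-linked genes thus went both ways.

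A second loop, which includes REV-ERB and D-box factors, is known to act on Arntl and the period genes. Among the genes of this loop reported here, Nr1d1 and Dbp were at least 4-fold lower in Th17 and Hlf at least 4-fold higher. Nr1d1, whose product REV-ERB alpha represses Arntl, was at 805 in Th17, against 12621 in ILC3, and Dbp, an E-box target, at 63.5 in Th17, against 698 in ILC3. Hlf was at 6547 in Th17, against 853 in ILC3, and Rora and Nfil3 were 1.07-fold higher and 1.37-fold lower in Th17. Centred on the 150 genes, Rora had a log2 ratio of -0.37, so its direction turned.

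Genes that set the stability and activity of PER and CRY proteins mostly stayed short of 2-fold. Of 13 kinase and phosphatase genes that reached 100, 0 were 2-fold different in either direction, beside 32.3% of all genes that reach 100. The median of the 13 was 0.21, or -0.25 when centred on the 150 genes. Ppp1cc and Ppp2ca, phosphatase catalytic subunits, were 1.59-fold and 1.72-fold higher in Th17. Csnk1d and Csnk1e, the casein kinases that phosphorylate PER, are named here for that role after their values were seen. Csnk1d was 1.56-fold higher in Th17 (1.49 to 1.63), and Csnk1e differed within counting error (1.04-fold higher in Th17, 0.936 to 1.16; log2 ratio -0.40 when centred). Of 10 ubiquitin and turnover genes, only Usp2, a deubiquitinase gene with a rhythmic transcript, passed 2-fold, at 210.5 in Th17, against 614 in ILC3. Ddb1 and Usp7 were 1.35-fold and 1.40-fold higher in Th17, though Ddb1 turned to a log2 ratio of -0.03 when centred. Of 18 cofactor genes, Top2a was 19.1-fold higher in Th17, and the acetyltransferase gene Kat2b and Parp1 were 2.15-fold and 2.59-fold lower. Top2a is also a proliferation gene. Ncor1, the REV-ERB corepressor, was 1.18-fold lower in Th17 and Sfpq 1.58-fold higher. Timeless and Tipin, which act mainly at replication forks in mammals, were 1.84-fold and 2.13-fold higher in Th17. Arntl2, the paralog of Arntl, was at 14.1 in Th17, from only 12 reads, and listed at 0 in ILC3.

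**Figure D5:**
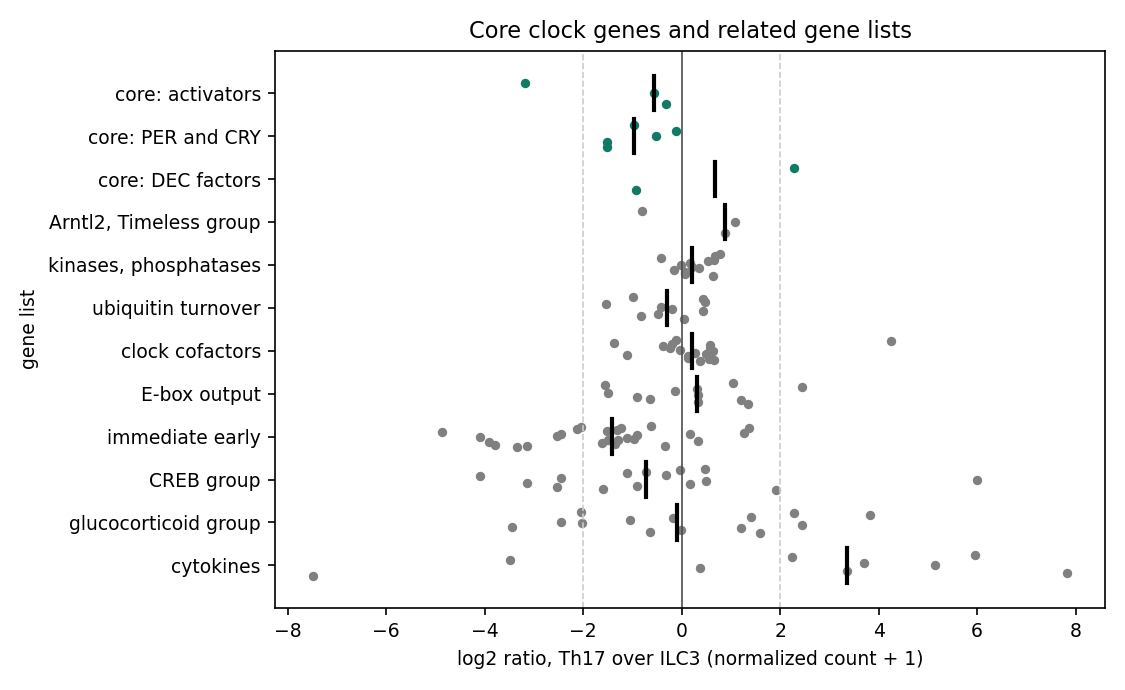
Log2 ratio of normalized counts plus 1, Th17 over ILC3, for each gene (points, mean of at least 10) of the core clock lists (green) and related lists (grey); black bars are list medians and dashed lines mark 4-fold. The kinases and phosphatases lie within 2-fold and 22 of the 26 immediate early genes lie on the ILC3 side, as do all core genes but Bhlhe41. Of all genes with a mean of at least 10, 49.3% lie on that side.

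The 12 genes listed here as E-box output did not follow a single direction. The list leaves out the Per, Cry and Bhlhe genes and Dbp, which are named above as E-box targets. All of those but Bhlhe41 were lower in Th17, Cry1 within counting error. The direction of E-box targets as a whole is therefore not given by this list, and its gene Ddit4 is also glucocorticoid-linked. Of 12, 4 were at least 2-fold higher in Th17 (Ddit4, Wee1, Por and Leo1) and 2 at least 2-fold lower (Pim3 and Fmo5). Of all genes that reach the minimum count given above, 16.2% were at least 2-fold higher in Th17 and 16.0% at least 2-fold lower. The median of the list was 0.32, or -0.15 when centred on the 150 constitutive genes. Ddit4, an inhibitor of mTORC1 signalling, was at 2195 in Th17, against 405 in ILC3, and Wee1, which delays entry into mitosis, at 230.5 in Th17, against 90.1 in ILC3. Pim3, a kinase gene, was 2.84-fold lower in Th17, and Cdkn1a was 1.10-fold lower. Across the table, genes with an E-box in a promoter window had a median log2 ratio of 0.06 (1155 genes), and all genes with a window 0.04 (10126 genes).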

How the data were processed

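Per the submitters' processing notes, TopHat2 2.0.6, HTSeq 0.5.4p3 and DESeq 1.12.0 were the tools and mm8 the genome build; in what order and with which settings is not stated in the sources used here. Groups were taken from the sample titles. The deposited signal values are the authors' size-factor-normalized counts, headed as means although each group is 1 library. The authors also deposited a fold ratio (Th17 over ILC3) and p-values, which have no replicates behind them. Of 17048 rows, 24 named by dates were left out (0.251% of Th17 and 0.297% of ILC3 signal).

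Whole reads were recovered as multiples of each library's smallest non-zero value (1.18 in Th17, 0.850 in ILC3), and 100% of values were whole within 0.001. With 1 library per group no count test could be fitted. Differences are log2 ratios after adding a pseudocount of 1, so differences of low genes are understated; folds in the text are without it. Intervals of ratios are exact (Clopper-Pearson, or conditional for ratios of ratios), and cover counting error only, since each group is 1 library. PCR reads without molecular identifiers can copy one another, so the intervals may be too narrow even for counting error. The members and lists were chosen with earlier results of these data known. From each related list, up to 3 genes past 4-fold and the 2 most highly expressed others are named, and from each marker list the highest gene and those at 0; the remaining genes are named to resolve a count of 5 or fewer. One gene of the second loop is not reported here. With 2 libraries, no genes of like pattern were sought. The calculations were tested on simulated data. Alternatives were scalings, pseudocounts, minimums and thresholds. The software was Python 3.11.15 with scipy 1.17.1, numpy 2.4.6, matplotlib 3.10.9 and pandas 2.3.3.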

Additional observations from a re-analysis of the deposited data

How the results depend on the processing

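No paired analysis was possible because each group has 1 library. Over 5 scalings and pseudocounts, 14 of the 50 values of the 10 genes moved outside the counting interval. None changed direction, but these settings could not have turned one. A pseudocount keeps the direction, and each scaling shifted all genes toward ILC3, where all members but Bhlhe41 already lay. The log2 ratio of Bhlhe41, 2.29, exceeded the size of the largest shift. Before the pseudocount, which damps the shift of low genes, scaling by total reads shifted all genes by -0.11 on the log2 scale and centring on 150 genes of mitochondrial ribosome, proteasome and complex I by -0.46. The median of the 10 genes became -0.85 and -1.21 under these, and the members at least 2-fold lower in Th17 numbered 5 and 6 in place of 3, beside 18.0% and 26.3% of all genes in place of 16.0%. The upper quartile shifted all genes by -0.06, with 4 members and 17.1% of all genes lower. At a minimum of 500, 2 of 7 members and 12.5% of all genes were lower. Of all genes at least 4-fold different, 28.2% were higher in Th17 when centred, in place of 43.3%. Without Bhlhe41 (chosen after seeing the data), or at a minimum mean of 100, which leaves it out, the median was -0.92. With a minimum of 10 or none in the higher library, 1 member (Bhlhe41) was at least 2-fold and 4-fold higher in Th17 in place of 0. By the authors' adjusted p under 0.05, 0 of 10 members were called in place of 1, beside 1.80% of all genes; no p-value was computed here. Over all genes, those at least 4-fold higher in Th17 and in ILC3 numbered 1273 and 2099 at a minimum of 10, 343 and 408 at 500, and 1923 and 2274 with none, against 668 and 875. Depth limits Bhlhe41, at 21 reads in Th17 and 5 in ILC3.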

Other observations

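Cytokine genes of a list linked to BHLHE40 in mouse T cells differed in both directions. Csf2, encoding GM-CSF, was at 43.5 normalized counts in Th17, against 7959 in ILC3, while Il10, an anti-inflammatory cytokine gene, was at 3121 in Th17, against 12.8 in ILC3. Il17a, whose reporter defined the Th17 sort, was at 33614 in Th17, against 953 in ILC3. Il17f was at 23257 in Th17, against 1774 in ILC3, and Ifng, encoding interferon gamma, at 19688 in Th17, against 1909 in ILC3. Il22 was at 2830 in Th17, against 31670 in ILC3. Il2 was at 256 in Th17, against 198 in ILC3, a direction that turned when centred on the 150 genes (log2 ratio -0.09). Il5 was at 71.7 in Th17, against 14.5 in ILC3. Of the 9 cytokine genes with a row, 7 reached 100 normalized counts in the higher library. Of these 7, 4 were at least 4-fold higher in Th17 and 2 at least 4-fold higher in ILC3. Over all genes that reach 100, the shares were 6.40% and 8.39%. Il5, and Il13 at 61.1 in Th17 and 0 in ILC3, did not reach 100 and were not counted. The part of Bhlhe40 in these values was not tested.

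Genes with a D-box in a promoter window had a median log2 ratio of -0.19 (71 genes with a mean of at least 10), and those with a full cAMP response element 0.20 (355 genes). The median over all genes with a window was 0.04. These are descriptions of 1 library per group, and the lists overlap.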
